A study of Mus musculus with 6 samples.

Results

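The genes described here were 9 components of transforming growth factor beta (TGF-β) signalling: the ligands Tgfb1, Tgfb2 and Tgfb3, the latency protein gene Ltbp1, the receptors Tgfbr1 and Tgfbr2, and Smad2, Smad3 and Smad7. They are 9 of 21887 protein-coding genes on mouse chromosomes 1 to 19, X and Y. The 9 were picked partly on a measured value, the far larger number of H3K27ac bases at Ltbp1 after CD, so the H3K27ac values of that gene are given as a description. For each gene, peaks were taken in the gene body and 50 kb on each side, at RefSeq positions of GRCm38, the assembly that mm10 also denotes. CUT&Tag, in which an antibody directs a transposase to the chromatin it binds, was carried out on OG2X129 mouse embryonic fibroblasts in chemical reprogramming. The 6 samples formed 3 groups of 2: H3K27ac after CD, H3K27ac after DMSO (the solvent), and Flag in cells that overexpressed Flag-tagged Rxra. The labels do not spell out CD. CD3254, which appears in the title of the study, is a compound that activates retinoid X receptors. All groups came from OG2X129 mouse embryonic fibroblasts. The time in reprogramming, the agent given to the Flag-Rxra cells and the number of separate cultures are not given in the sources used here. Flag peaks report the overexpressed, tagged receptor and not the fibroblasts' own Rxra.

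TGF-β ligands are secreted in a latent form, held by their own propeptide and by latent TGF-β binding proteins such as Ltbp1, which tether them to the matrix. Once freed, a ligand brings together the receptor kinases Tgfbr2 and Tgfbr1, and Tgfbr1 phosphorylates Smad2 and Smad3, which then act on target genes in the nucleus. Smad7 is an inhibitory SMAD that blocks the receptor and is itself a target of the pathway. In fibroblasts TGF-β drives matrix production and a mesenchymal state, and blocking it is known to favour reprogramming of mouse fibroblasts. Rxra is a nuclear receptor that binds DNA as a homodimer or with partner receptors, and acetylation of histone H3 at lysine 27 (H3K27ac) is found at active enhancers and promoters.

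The deposited lists held 104437 H3K27ac regions after CD and 75482 after DMSO, each list standing for both replicates of its condition, so an H3K27ac value has no replicate error and no test. Flag-Rxra had a list for each replicate, with 28243 peaks in replicate 1 and 45999 in replicate 2. A replicate 1 peak that overlapped a replicate 2 peak is called shared here, and there were 17623 shared peaks. Read counts are not part of these lists, so the depth of each sample is unknown and its role in the CD and DMSO difference was not tested. The CD list covered 1.20 times the bases of the DMSO list. Of 12 fibroblast markers, 5 had an H3K27ac region within 1 kb of an annotated end in CD and 5 in DMSO, against 38.3% and 35.8% of all protein-coding genes. Col1a1, Col1a2, Postn, Prrx1, Thy1 and Fbn1 had none in either list, so the lists mark the labelled cell type only in part. Markers of other cell types were marked at 2 of 6 (macrophage), 2 of 6 (endothelial), 3 of 6 (epithelial) and 1 of 6 (pluripotent) genes in CD, and at 0, 3, 1 and 1 of 6 in DMSO, so marking at this resolution did not set fibroblast genes apart.

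Flag-Rxra peaks reached the transcription start of most of these genes. RefSeq promoter sequences (250 bases before to 50 bases after a start, GRCm38.p6) were matched for 6 of the 9 genes, with 8 starts in all, and a shared peak overlapped 6 of the 8, against 21.3% of 32851 promoters of all genes. The promoters of Tgfb3, Smad2 and Smad7 were not used here. Those under a shared peak were Tgfb2, Tgfbr1 (the first of its starts), Tgfbr2, Smad3 and both starts of Ltbp1. The second Tgfbr1 start had no Flag-Rxra peak in either replicate. The Tgfb1 promoter had a peak in replicate 2 only (fold of 9.35). Replicate 1 had a peak within 1 kb of that start (fold of 4.29), but the peaks did not overlap. Each fold here is the authors' deposited enrichment of a peak over the background of their peak caller.

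The 250 bases before the start are shown for the 6 promoters under a shared peak, so that those with the summits of both replicates in that stretch (Tgfbr1, Smad3 and the second start of Ltbp1) can be set beside the others. They run 5′ to 3′ on the coding strand. Capitals mark GGGCGG, the GC box bound by Sp1-type factors, and GTCT, the half-site bound by SMADs, each in either orientation.

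Tgfbr1, chr4:47352972-47353221, plus strand: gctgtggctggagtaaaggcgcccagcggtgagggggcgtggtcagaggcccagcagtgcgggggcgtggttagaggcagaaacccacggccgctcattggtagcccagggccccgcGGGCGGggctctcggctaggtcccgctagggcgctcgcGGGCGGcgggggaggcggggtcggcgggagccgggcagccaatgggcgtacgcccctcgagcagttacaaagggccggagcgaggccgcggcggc
Tgfbr2, chr9:116175364-116175613, minus strand: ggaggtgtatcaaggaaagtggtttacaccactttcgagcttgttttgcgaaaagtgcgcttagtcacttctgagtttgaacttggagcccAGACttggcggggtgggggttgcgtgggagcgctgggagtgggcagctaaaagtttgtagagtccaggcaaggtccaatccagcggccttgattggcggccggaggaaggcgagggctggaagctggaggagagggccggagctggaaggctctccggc
Tgfb2, chr1:186705990-186706239, minus strand: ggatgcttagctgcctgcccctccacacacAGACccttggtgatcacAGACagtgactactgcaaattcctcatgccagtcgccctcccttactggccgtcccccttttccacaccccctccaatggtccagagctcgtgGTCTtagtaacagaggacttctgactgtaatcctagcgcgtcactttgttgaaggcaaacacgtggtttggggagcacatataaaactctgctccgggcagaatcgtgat
Smad3, chr9:63757995-63758244, minus strand: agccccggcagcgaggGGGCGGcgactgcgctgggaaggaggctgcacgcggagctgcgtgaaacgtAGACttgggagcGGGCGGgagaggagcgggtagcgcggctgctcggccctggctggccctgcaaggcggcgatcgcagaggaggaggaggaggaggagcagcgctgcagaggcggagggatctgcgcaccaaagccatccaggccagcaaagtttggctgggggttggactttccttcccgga
Ltbp1 first start, chr17:75005279-75005528, plus strand: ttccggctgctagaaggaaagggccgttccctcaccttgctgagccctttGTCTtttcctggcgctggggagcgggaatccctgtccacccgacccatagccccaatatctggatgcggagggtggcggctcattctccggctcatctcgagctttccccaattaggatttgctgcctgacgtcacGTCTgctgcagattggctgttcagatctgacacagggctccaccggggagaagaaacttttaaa
Ltbp1 second start, chr17:75178531-75178780, plus strand: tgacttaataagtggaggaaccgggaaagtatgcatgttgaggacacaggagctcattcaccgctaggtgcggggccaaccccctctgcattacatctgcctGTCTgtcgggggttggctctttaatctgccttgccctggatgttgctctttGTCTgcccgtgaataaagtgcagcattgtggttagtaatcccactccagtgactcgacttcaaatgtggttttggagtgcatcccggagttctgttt

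The Tgfbr1 and Smad3 promoters are rich in G and C (74.8% and 69.2%) and each holds 2 GC boxes, whereas those of Tgfb2 (53.6%), Tgfbr2 (58.4%) and Ltbp1 (56.8% and 50.8%) hold none. Promoters under a shared peak had a median GC content of 62.4%, against 52.4% for all promoters, and 67.9% of them held a GC box, against 32.7%. Of the 6 shown here, 2 held one. The Tgfb1 promoter, not under a shared peak, had a GC content of 75.2% and 5 GC boxes. The nuclear receptor half-site AGGTCA was found in either orientation in 0 of the 6 promoters of these genes under a shared peak, against 9.89% of all promoters under a shared peak and 14.0% of all promoters. Direct repeats of AGGTCA with 1, 2, 4 or 5 bases between (DR1, DR2, DR4 and DR5, which contain the half-site) were also absent from the 6. Only these exact letters were searched, and variants of the half-site were not. The AP-1 site TGANTCA was in none of them either, against 6.75% of all promoters. GTCT was in 5 of the 6, all but Tgfbr1, and in 82.9% of all promoters. The palindrome GTCTAGAC, made of 2 such half-sites, was in 0 of the 6 and in 0.167% of all promoters. These matches describe letters in 250 bases and do not show whether Rxra or a SMAD is bound.

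At Tgfbr1, the type I receptor kinase, the promoter peak (chromosome 4, 47352898 to 47353461) had folds of 15.7 in replicate 1 and 18.8 in replicate 2, with both summits at -50 bp from the start (negative values lie before it). This was the strongest of the promoter peaks in replicate 1 and was close in size in both replicates. Smad3 had folds of 12.2 and 14.0 at its start (chromosome 9, 63757818 to 63758548), with summits at -83 bp in replicate 1 and -134 bp in replicate 2. At Tgfbr2, the type II receptor kinase, the start had folds of 10.4 and 14.8 (chromosome 9, 116174899 to 116175456), with summits 193 and 220 bp after it. The other annotated end of Tgfbr2 also carried a peak (chromosome 9, 116087292 to 116087583), and it was the stronger one, with folds of 14.9 and 25. At Tgfb2, a ligand with a role in development of heart and palate, the peak was broad in replicate 1 (chromosome 1, 186705254 to 186706493), with folds of 8.48 and 13.3 and summits 243 and 28 bp after the RefSeq start. At the first start of Ltbp1 folds were 8.38 and 10.1, and at the second, inside the gene, they were 14.9 and 21.9 (chromosome 17, 75178325 to 75178752). The second start of Ltbp1 thus had the higher fold in both replicates.

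Counting either annotated end, 6 of the 9 genes had a shared peak within 1 kb (Tgfbr1, Tgfbr2, Ltbp1, Smad2, Smad3 and Smad7), against 32.6% of all protein-coding genes. Smad2 had one 221 bp inside its low-coordinate end, with folds of 8.65 and 11.4, and Smad7 had a pair at its low-coordinate end, with folds of 8.16 and 8.52 for one and 3.87 and 6.86 for the other. Tgfb1, Tgfb2 and Tgfb3 had none at an annotated end by this count. The annotated end of Tgfb2 lies outside the RefSeq start used above, so its promoter peak is not in the 6. Tgfb3 had a peak near its high-coordinate end in each replicate (folds of 7.51 in replicate 1 and 12.4 in replicate 2), but the peaks did not overlap.

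Over gene bodies and 50 kb on each side, 50 shared peaks lay at the 9 genes, from 78 peaks in replicate 1 and 106 in replicate 2. All 9 genes had at least 1, against 68.9% of protein-coding genes, a share that grows with the length of the window. The windows ran from 118 to 487 kb, and the median over all genes was 117 kb. Smad3 had 13 shared peaks, Ltbp1 and Smad7 had 9 each, Tgfb2 had 5, Tgfb1 had 4, Tgfbr2 and Smad2 had 3 each, and Tgfb3 and Tgfbr1 had 2 each. Per 100 kb, Smad7 had 7.0 (percentile 98.5 of all protein-coding genes) and Smad3 6.15 (percentile 97.1), against a median of 0.96. The remaining 7 genes had 1.24 to 3.39 per 100 kb. Ltbp1, with its long window, had 1.85. Of the 50 peaks, 44 had the higher fold in replicate 2, with a median ratio of replicate 2 to replicate 1 of 1.39, equal to that over all shared peaks (1.39). Median folds at the 9 genes were 9.63 in replicate 1 and 13.1 in replicate 2, slightly below those of all shared peaks (10.3 and 14.4).

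**Figure D1:**
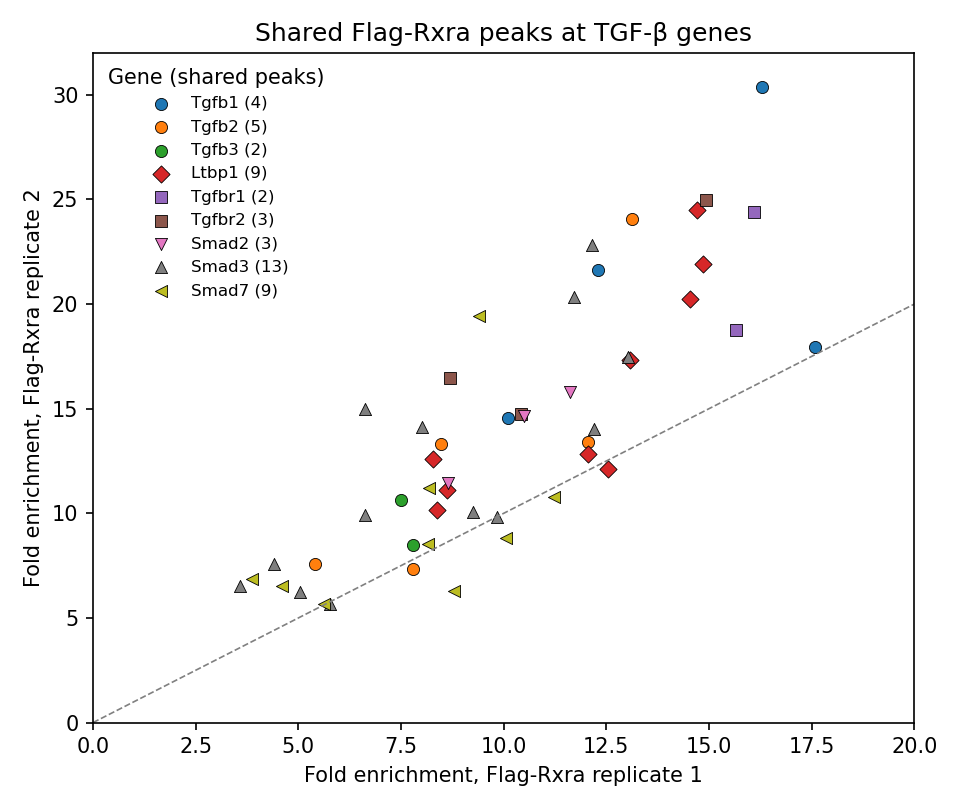
Fold enrichment of the 50 shared Flag-Rxra peaks at the 9 genes in replicate 1 (x axis) and replicate 2 (y axis), one point per peak, with the number of peaks per gene in the legend and equality as a dashed line. The peak with the highest fold in replicate 2 (16.3 in replicate 1 and 30.4 in replicate 2) is counted in the Tgfb1 window and lies at Exosc5 and Bckdha, and 44 of the 50 points lie above the line.

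Peaks in the Tgfb1 window lay at its neighbours. Tgfb1, the most widely expressed of the ligands, has 6 other coding genes in its window, and the 4 shared peaks were at the ends of Exosc5 and Bckdha (folds of 16.3 and 30.4), of B9d2 (17.6 and 17.97) and of Ccdc97 (12.3 and 21.6), and inside Hnrnpul1 (10.1 and 14.6). No shared peak lay in the Tgfb1 body. Tgfb3 had the same arrangement, with both shared peaks inside Ttll5 (folds of 7.78 and 8.49, and of 7.51 and 10.6) and none in its own body. The best-ranked peak in the Tgfb2 window lay near an end of Rrp15 (folds of 13.1 and 24.0). In the Tgfbr1 window the best-ranked one lay inside Col15a1 (16.1 and 24.4). Over the 50 peaks, 8 lay within 1 kb of an end of one of the 9 genes, 24 deeper in their bodies, 4 in flanks at an end of another coding gene, 4 in flanks inside another gene and 10 in flanks outside genes.

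Smad3 carried nearly all of its peaks within the gene, and Smad7 on both sides of its low-coordinate end. Of the 13 shared peaks at Smad3, 12 overlapped the gene body. The best-ranked (chromosome 9, 63716123 to 63716905) had folds of 12.2 in replicate 1 and 22.8 in replicate 2 and lay 41640 bp after the start. Next to it by fold in replicate 2 were peaks 100702 bp after the start (folds of 11.7 and 20.4) and 83137 bp after it (13.02 and 17.5). The weakest of the 13 in replicate 1 had folds of 3.57 and 6.52. At a −log10 q of 20 or more in both lists, 7 of the 13 were left. At Smad7, 4 of the 9 shared peaks overlapped the body, 5 the flank on the low-coordinate side and 1 the other flank, and the peak at the low-coordinate end is counted both in body and flank. Its best-ranked peak (chromosome 18, 75386183 to 75386472) had folds of 9.41 and 19.4, and 5 of the 9 were left at a −log10 q of 20 or more.

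**Figure D2:**
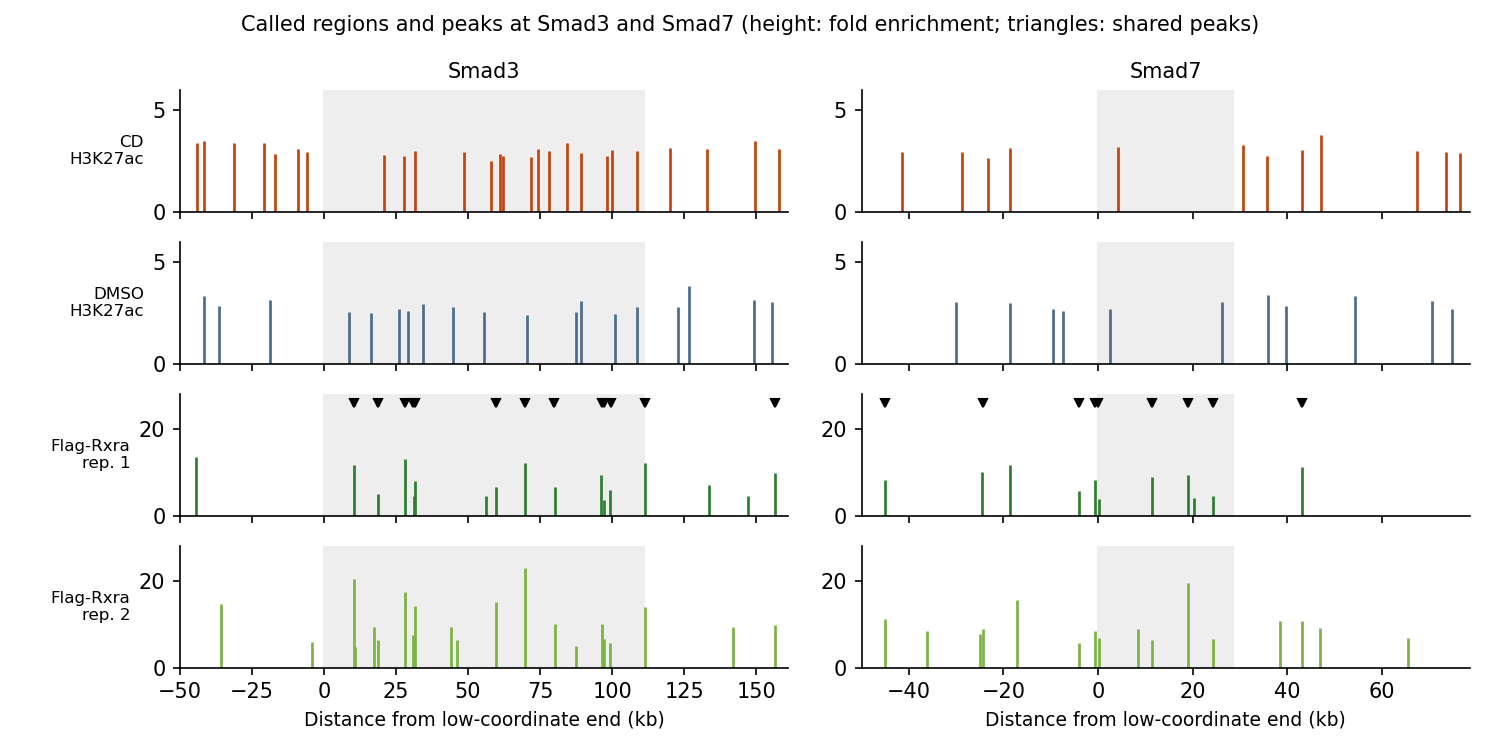
Regions and peaks called at Smad3 (left) and Smad7 (right), by distance in kb from the low-coordinate end of the gene, with the authors' fold as height, the gene in grey, and H3K27ac after CD, H3K27ac after DMSO and both Flag-Rxra replicates from top to bottom. Triangles mark the 13 shared Flag-Rxra peaks at Smad3 and the 9 at Smad7, most of which have no H3K27ac region at the same place.

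Most shared Flag-Rxra peaks at these genes had no H3K27ac region over them. Of the 50, 10 overlapped a CD region (20%, exact 95% interval 10.0 to 33.7) and 14 a DMSO region (28%, 16.2 to 42.5), against 26.9% and 34.4% of all shared peaks. By overlap, 6 were in CD only, 10 in DMSO only, 4 in both and 30 (60%, 45.2 to 73.6) in neither, against 54.1% in neither over all shared peaks. The shares at the 9 genes lay within counting error of those over all shared peaks. The 4 in both lists were the peaks at Exosc5 and Bckdha, at B9d2, at Rrp15 and at the low-coordinate end of Smad2. Of the 9 shared peaks at Ltbp1, 0 overlapped any of the 48 CD regions of its window, which allows a share of up to 33.3% by the limit of 3 counts (exact 95% upper bound 33.6%), and 2 overlapped a DMSO region. At Smad3, 2 of 13 overlapped a CD region and 1 a DMSO region, and at Smad7 1 of 9 overlapped a CD region and 0 a DMSO region. With H3K27ac regions of −log10 q of 2 or more, 5 of the 50 overlapped one in either list, against 20 with all regions.

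H3K27ac regions called at annotated ends differed between genes and lists. Within 1 kb of an end, Tgfb1, Tgfb2, Tgfbr2 and Smad2 had a CD region, against 38.3% of all protein-coding genes. A DMSO region lay there at Tgfb1, Tgfb3, Tgfbr1, Tgfbr2 and Smad2, against 35.8%. Ltbp1, Smad3 and Smad7 had none in either list. The Tgfbr1 promoter held no CD region and a DMSO region with a −log10 q of 1.56, where both lists begin at 1.00. The Tgfb2 promoter held a CD region (−log10 q of 1.51) and no DMSO region, and the outer annotated end of Tgfb2 had a CD region of 3.55 and none in DMSO. The 2.5 kb around the Tgfbr2 start had 771 covered bases after CD and 1987 after DMSO. Around the Tgfb1 start the same measure gave 241 after CD and 479 after DMSO. Neither list had a region within 1 kb of the starts of Ltbp1 and Smad3 at their annotated ends, although both carried shared Flag-Rxra peaks. Smad2 had 948 after CD and 1151 after DMSO around its low-coordinate end.

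Summed over body and flanks, H3K27ac covered somewhat more bases after CD at 6 of the 9 genes, against 59.5% of all protein-coding genes. None of the 9 reached a 2-fold difference with at least 500 bases in the higher list, whereas by this rule 17.2% of protein-coding genes were higher in CD and 4.0% in DMSO. Among the ligands, Tgfb1 (chromosome 7, 25687002 to 25705077) had 2919 covered bases after CD and 5205 after DMSO. Tgfb2 (chromosome 1, 186622787 to 186709697) had 8458 in CD and 7261 in DMSO, and Tgfb3 (chromosome 12, 86056743 to 86079041) had 5583 in CD and 4542 in DMSO. Tgfb1 was the only 1 of the 9 genes with a ratio below 0.9, at 0.561, and its deficit in CD lay in the flanks (2359 bases in CD and 4726 in DMSO), where its neighbours lie. In its body it had 560 bases in CD and 479 in DMSO.

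Among the receptors, Tgfbr1 (chromosome 4, 47353222 to 47414926) had 2788 covered bases after CD and 2096 after DMSO, and Tgfbr2 (chromosome 9, 116087695 to 116175363) had 7594 in CD and 7742 in DMSO. In the body of Tgfbr1, CD had 1206 covered bases and no DMSO region was called. Among the SMADs, Smad2 (chromosome 18, 76241090 to 76311748) had 7480 covered bases after CD and 5994 after DMSO. Smad3 (chromosome 9, 63646766 to 63757994) had 8873 covered bases after CD and 6570 after DMSO. Smad7 (chromosome 18, 75367365 to 75395935) had 3865 in CD and 3969 in DMSO. The ratios of the receptors and SMADs, between 0.974 and 1.35, lay around the 1.20 by which the whole CD list exceeds the DMSO list. The sum over the 9 genes was 65709 bases in CD and 53961 in DMSO, a ratio of 1.22. Its largest part came from Ltbp1 (18149 in CD and 10582 in DMSO), the gene picked on its CD bases. The ratio of the sum therefore depends on that choice.

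**Figure D3:**
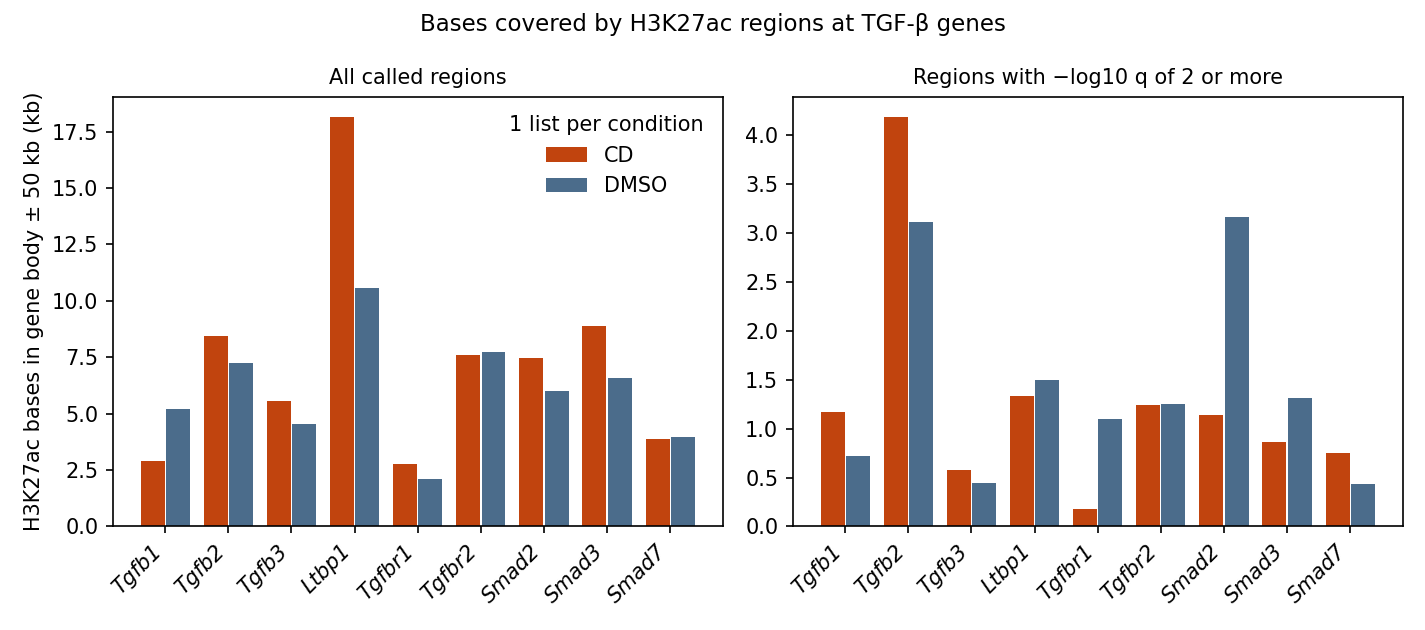
Bases covered by H3K27ac regions in the gene body and 50 kb on each side (y axis, kb) for the 9 genes, CD left of DMSO, with 1 list per condition and no error. The left panel holds all called regions and the right panel, on its own scale, only those with a −log10 q of 2 or more, where 6 of the 9 genes lie on the other side of equality from the left panel.

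Most of these regions lay near the threshold of the lists. The windows held 170 CD and 130 DMSO regions, and the highest −log10 q among them was 4.45. Of these, 29 in CD (17.1%) and 28 in DMSO (21.5%) had a −log10 q of 2 or more, against 13.8% and 18.3% of all regions. With such regions alone, the direction turned at Tgfb1 (1170 bases in CD and 723 in DMSO), Tgfbr1 (177 and 1095), Ltbp1 (1336 and 1501), Smad2 (1136 and 3166), Smad3 (860 and 1308) and Smad7 (752 and 439). The direction of the H3K27ac difference at these 6 genes therefore rested on regions near the threshold of the lists. In the windows, 21 of 170 CD regions (12.4%) overlapped a DMSO region and 21 of 130 DMSO regions (16.2%) a CD region, against 13.9% and 19.2% over the whole lists.

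Among the strongest regions of each window, those at Tgfb2 and Tgfbr1 lay at the same place in both conditions. The Tgfb2 region lay beyond the gene's start, towards Rrp15, and spanned 1876 bp in CD (chromosome 1, 186731075 to 186732950, fold 4.28, −log10 q 4.11) and 2654 bp in DMSO (186730145 to 186732798, fold 3.50, −log10 q 2.98). The Tgfbr1 region had its midpoint at -11441 bp from the annotated start in CD (chromosome 4, 47341693 to 47341869, fold 5.06, −log10 q 4.45) and at -11675 bp in DMSO (47341330 to 47341765, fold 3.98, −log10 q 2.67). Neither held a shared Flag-Rxra peak. Over the 9 genes, the strongest CD region overlapped a DMSO region at 2 and the strongest DMSO region overlapped a CD region at 5 (also at Tgfb1, Tgfb3 and Smad2).

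Ltbp1 (chromosome 17, 75005480 to 75392512) is the longest of the genes, at 387033 bp, and its H3K27ac difference was not spread evenly along it. Within 50 kb of its annotated ends, CD had 20 regions covering 7844 bases and DMSO 5 regions covering 840 bases. In the remaining interior of 287 kb, CD had 28 regions covering 10305 bases and DMSO 26 covering 9742. A DMSO region (75055307 to 75056827) crosses the limit at 75055480, so it counts in both parts, with most of its bases in the interior. A slightly wider limit would give DMSO more bases near the ends, so the value of 840 depends on where the limit lies. Over body and flanks together the values were 18149 in CD and 10582 in DMSO, a ratio of 1.72 against 9.34 near the ends. With all called regions, the interior had 3590 covered bases per 100 kb in CD and 3394 in DMSO, while near the ends CD had 3922 and DMSO 420.0. With regions of at least 2 in −log10 q alone, a setting chosen after seeing the data, the interior had 312 bases in 2 CD regions and 1355 bases in 4 DMSO regions, so the likeness of the interior rested on the weaker regions. Within 50 kb of the ends, Ltbp1, the gene picked on its CD bases, was at least 2-fold higher in CD. It was the only 1 of the 9 genes to be so, against 17.1% of protein-coding genes. None was 2-fold higher in DMSO, against 4.18%. The genes shorter than 100 kb have no interior, so only Ltbp1 and Smad3 could differ here from the sum over body and flanks.

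The larger number of CD bases near the ends of Ltbp1, the gene picked on its CD bases, was present on both sides of both ends. Before the start CD had 1227 bases and DMSO 206, and in the first 50 kb of the gene CD had 3123 and DMSO 488. In the last 50 kb CD had 1963 bases and DMSO 146, and in the 50 kb beyond the gene, towards Rasgrp3, CD had 1531 while no DMSO region was called. The median −log10 q of the regions near the ends was 1.40 for CD and 1.31 for DMSO, and 3 of 20 in CD and 1 of 5 in DMSO reached 2. With those alone, CD had 1024 bases near the ends and DMSO 146. With the CD list trimmed to the length of the DMSO list, CD had 6027 and DMSO 840. Both settings reuse the regions on which the gene was picked, so they are description and give no separate support. The strongest single regions of the gene lay in its interior in both lists, and their −log10 q was 3.13 for CD (chromosome 17, 75154404 to 75154581) and 4.06 for DMSO (75243133 to 75243309).

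Flag-Rxra peaks at Ltbp1 lay mostly in the interior, which held 7 of the 9 shared peaks. The best-ranked peak (chromosome 17, 75056362 to 75056932) lay 51141 bp after the annotated start, with folds of 14.7 in replicate 1 and 24.5 in replicate 2. Another (75110336 to 75111140) had folds of 14.5 and 20.2 and the highest −log10 q of all shared peaks at the 9 genes, at 167 in replicate 1 and 234 in replicate 2. Each of this pair overlapped a DMSO region (−log10 q of 1.87 and 1.31) and no CD region. The peak at the internal start, with folds of 14.9 and 21.9, overlapped neither. Beyond the gene, 1 shared peak lay in the flank towards Rasgrp3, with folds of 13.1 and 17.4.

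**Figure D4:**
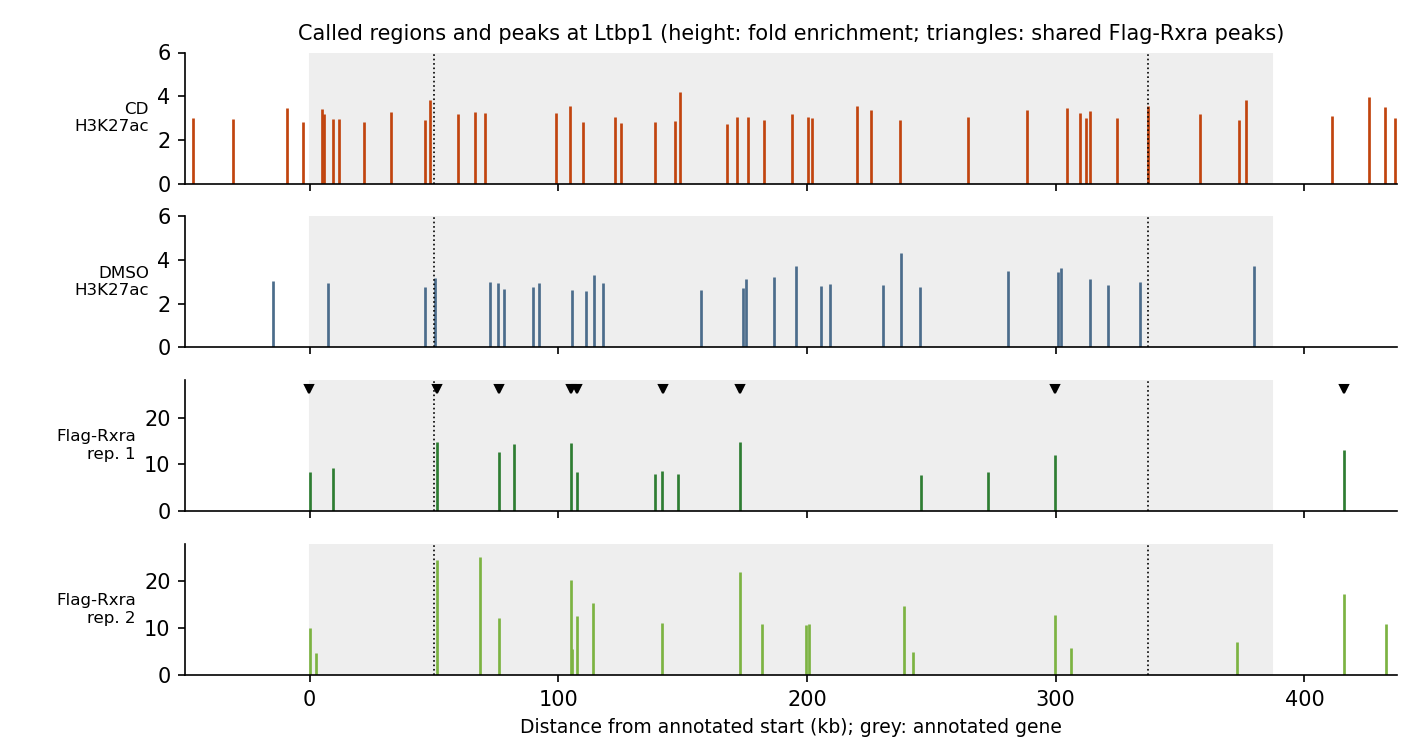
Regions and peaks called at Ltbp1 by distance from its annotated start (x axis, kb), with the authors' fold as height, the gene in grey and dotted lines 50 kb inside each end; rows from top to bottom are H3K27ac after CD, H3K27ac after DMSO and both Flag-Rxra replicates. CD has 20 and DMSO 5 H3K27ac regions that reach outside the dotted lines, 28 and 26 reach between them, and triangles mark the 9 shared Flag-Rxra peaks. A DMSO region that crosses the line near the start counts on both sides and is drawn inside it, at its midpoint.

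The genes whose values lay nearest to those of Ltbp1 over the 4 lists (Euclidean distance of log2 covered bases plus 100 in CD and DMSO and of log2 peak number plus 1 in both Flag-Rxra lists) were Tead1, Mast4, Ctif, Gas7 and Runx1, at distances of 0.219 to 0.483. Tead1, a transcription factor of the Hippo pathway, had 16160 bases in CD and 9929 in DMSO, with 16 and 22 Flag-Rxra peaks in replicates 1 and 2. Ltbp1 had 15 and 21 such peaks. The likeness rests on 4 values per gene, which are not corrected for the length of the window. Ctif lies in the Smad7 window and its own flank reaches Smad7, so that gene shares peaks with 1 of the 9.

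The other genes of the pathway listed here, 60 in all and without Smad4, showed H3K27ac differences in both directions. Of these, 33 had more bases in CD and 27 more in DMSO, and the median log2 ratio was 0.06, against 0.20 over all protein-coding genes and 0.29 for the 9 genes. By the 2-fold rule 8 of 60 (13.3%) were higher in CD, against 17.2% of all genes, and 7 of 60 (11.7%) higher in DMSO, against 4.0%. Higher in CD were the ligand gene Bmp2 (1542 bases in CD and 190 in DMSO), Usp15, a deubiquitinase that acts on the receptor (4529 and 1195), the matrix protein gene Ccn2, a classical target (3558 and 1063), and Smurf1, a ubiquitin ligase of SMADs and receptors (9282 and 3554). Higher in DMSO were the ligand gene Bmp4 (160 bases in CD and 1522 in DMSO) and the mesenchymal genes Snai2 (539 and 1390), Acta2 (1568 and 4031) and Col1a2 (1348 and 3452). Col1a1, which encodes the partner chain of Col1a2 and was added after its values were seen, was higher in CD (4829 bases in CD and 2287 in DMSO). Fn1, the fibronectin gene, likewise added, had 3782 in CD and 2234 in DMSO and was not called. Targets were thus found on both sides, with 2 of 18 higher in CD and 3 of 18 higher in DMSO. Of the 11 latency and activation genes, 0 were higher in CD and 2 higher in DMSO, and of the 10 corepressors and regulators 3 were higher in CD and 1 in DMSO. All these values count every called region in the gene body and 50 kb on each side. For short genes such as Bmp2, Ccn2, Bmp4, Snai2 and Acta2, most of that window is flank. Whether the bases lie at neighbouring genes was not tested for the 60. Whether their directions hold under a stricter cut-off for the regions was not tested either.

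A shared Flag-Rxra peak lay within 1 kb of an annotated end of 31 of the 60 genes (51.7%), against 32.6% of all protein-coding genes. By role these were 13 of 18 targets, 8 of 10 corepressors and regulators, 6 of 11 receptors, 2 of 4 other SMADs, 1 of 6 other ligands and 1 of 11 latency and activation genes. The latency gene with a peak was Thbs1, which encodes an activator of latent TGF-β (folds of 6.04 and 11.6). Among the best-ranked end peaks were those of Ski, a SMAD corepressor (folds of 16.4 in replicate 1 and 21.1 in replicate 2, chromosome 4, 155223150 to 155223629), and Smurf1 (15.2 and 16.5). Bmp7 (11.7 and 19.8) and the inhibitory SMAD gene Smad6 (12.4 and 18.4) came next. Both inhibitory SMADs, Smad6 and Smad7, had a shared peak at an end, as did Smad1, Smad2 and Smad3, whereas Smad5 and Smad9 had none. Smad4 was not among the genes examined.

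**Figure D5:**
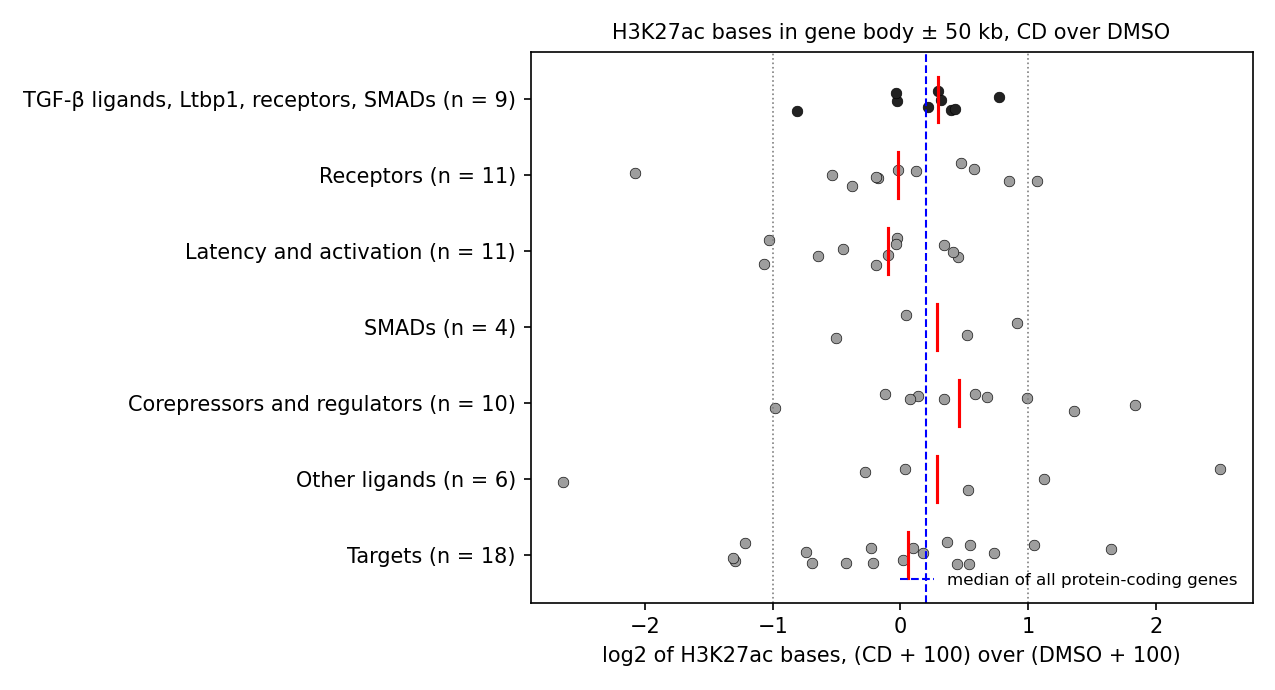
Log2 ratio of H3K27ac bases in the gene body and 50 kb on each side, CD plus 100 over DMSO plus 100 (x axis), for the 9 genes (black) and 60 other pathway genes by role (grey), with each group's median in red, 2-fold differences as dotted lines and the median of all protein-coding genes as a dashed line. The 9 genes lie inside the dotted lines, while 8 of the 60 are called higher in CD and 7 higher in DMSO.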

How the data were processed

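H3K27ac and Flag-Rxra CUT&Tag peak lists of 6 samples were used. Per the submitters' processing notes, the tools were fastp 0.20.1, Bowtie2 2.2.5, MACS2 2.1.2 and deepTools 3.4.3 and the build was mm10; a control library and calling parameters are not given in the sources used here. The fold enrichment (a ratio) and the −log10 q of each peak are the authors' deposited values, as are the summit positions. Per the labels, both H3K27ac replicates of a condition name 1 list.

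The work done here used Python 3.11.15, numpy 2.4.6, pandas 2.3.3, scipy 1.17.1 and matplotlib 3.10.9. Only autosomes and sex chromosomes entered the work. Covered bases were summed per gene, overlap meant 1 bp or more, and intervals are exact (Clopper-Pearson) and cover counting error only. Best-ranked means the smallest sum of fold ranks over both replicates. Interval code was checked against direct counting. All 9 genes are named; of the other pathway genes, at most 4 per direction with the largest ratio and the 4 best-ranked end peaks, with Thbs1, Col1a1 and Fn1 added after their values were seen. The 5 genes most like Ltbp1 were sought outside the Ltbp1 window. No test was run, because H3K27ac has 1 list per condition and the genes were chosen with results known. The genes and gene lists were chosen with earlier results of these data known. Alternatives covered the −log10 q, the window, list length, fold weighting, the overlap and each Flag-Rxra replicate. RefSeq gene positions and promoters are of GRCm38.p6.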

Additional observations from a re-analysis of the deposited data

How the results depend on the processing

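No paired analysis was possible because each H3K27ac condition has 1 list for both replicates. With all called regions, 6 of the 9 genes had more H3K27ac bases in CD, 0 were 2-fold higher in CD and 0 in DMSO. The count with more in CD was 2 within 2.5 kb of the ends and 4 to 8 under the other alternatives. The count 2-fold higher in CD was 2 with the body and 10 kb (Tgfbr1 and Smad2), 1 within 50 kb of the ends (Ltbp1) and 1 within 2.5 kb (Tgfb2). Within 50 kb of the ends only Ltbp1 and Smad3 could change, as the other genes are too short to have an interior. The count 2-fold higher in DMSO was 2 where H3K27ac regions below a −log10 q of 2 were dropped (Tgfbr1 and Smad2), 2 within 2.5 kb (Tgfb3 and Smad7) and 1 with matched list lengths (Tgfb1). In 2 alternatives chosen after seeing the data, both within 50 kb of the ends, Ltbp1 was the 1 gene higher in CD. In them, 2 genes were higher in DMSO with regions of 2 or more and 1 with matched lengths. In the Ltbp1 interior, the log2 ratio was 0.08 with all regions and -1.82 with those of at least 2, a setting also chosen after seeing the data. The cause of these shifts was not tested. The 50 shared Flag-Rxra peaks became 78 to 106 when either replicate was left out, because unshared peaks then count, and 8 within 1 kb of the ends. They were 36 to 39 under the other alternatives that could change the count. All 9 genes kept a peak except in the smaller windows, with 8 genes at 10 kb and 6 at 1 kb. Of the 50, 5 overlapped an H3K27ac region of −log10 q of 2 or more, against 20 with all regions. Leaving out peaks in H3K27ac regions with a −log10 q of at least 5 in both lists left 50. That outcome was fixed beforehand, because no H3K27ac region in these windows exceeded 4.45.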
